A study of Mus musculus with 10 samples.

Results

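The tumour necrosis factor (TNF) superfamily of ligands and receptors was examined in mouse B-cell progenitors from bone marrow with the transgene PAX5-ELN, a leukemia-associated fusion of the B-lineage factor PAX5 with elastin, and H2B-GFP, a histone label that is diluted as cells divide. All 10 libraries came from doxycycline-treated animals at a labelled time of 35 days. The 5 GFP high libraries were labelled quiescent and the 5 GFP low libraries proliferating. Both sorts carried the fusion and the label, so no library without PAX5-ELN was compared, and the promoters that drive the transgenes and the ages of the mice are not given in the sources used here. Members were all genes with a symbol starting Tnfrsf or Tnfsf and a digit, together with Cd27, Cd40, Fas, Ltbr, Tnf, Lta, Ltb and Fasl. This gave 40 of the 55573 genes counted, namely 15 ligand genes, 24 receptor genes and the antisense transcript Tnfsf13os.

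Ligands of this superfamily are mostly trimers at the cell surface or shed from it, and their receptors pass the signal on in one of several ways. Receptors with a death domain can recruit caspases through adaptors such as FADD, receptors with short cytoplasmic motifs bind TRAF proteins and activate NF-kB, and decoy receptors bind a ligand with little or no signal of their own. In the B lineage, BAFF and APRIL and their receptors govern the survival of mature B cells and plasma cells, and CD40 receives help from T cells.

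Total counts ranged from 10640894 to 14858520 per library, and no difference between the sorts was detected (two-sided exact permutation test, p = 0.365). Both libraries numbered 3 stood apart in holding 9 and 2 counts over Y-chromosome genes, where the others held 309 to 2654. Libraries 4 and 5 resembled each other more than libraries 1 to 3 in both sorts (GFP high: chi-square per gene 8.5 between 4 and 5, 32.1 to 50 across the sets). All 14 B-cell progenitor markers were detected, and 5 of them rose and 0 fell by edgeR. Of all tested genes, 12.0% rose and 15.4% fell. Summed levels of these markers were 17200 to 19900 CPM (counts scaled to a common library size) in GFP high, against 14100 to 15800 for GFP low. Cd24a (1520 in GFP high against 1790 in GFP low) and Blnk (35.4 against 51.5) were lower on average and did not pass. Given in the same order, mature B-cell markers summed to 1260 to 1520 against 955 to 1110 CPM, mostly Cd37 (1130 against 754 on average). Cd37, Ighd, Cxcr5 and Cd74 of that list rose. H2-Ab1 fell with no overlap (75.2 against 124, edgeR adjusted p = 0.000178), and Cd22 (74.9 against 88.6), Ms4a1 and Cr2, lower on average, did not pass. Plasma cell markers summed to 924 to 1490 against 804 to 1220 CPM, mostly Irf4 and Slamf7. Within the plasma cell list Jchain went the other way and fell, at 0.629 against 56.7 CPM on average with no overlap (edgeR adjusted p = 6.18e-06). Xbp1 (239 against 180 CPM) and Sdc1 (39.1 against 20.8 CPM) of that list rose. Prdm1 (24.6 against 12.3 CPM), Irf4 and Slamf7, higher on average, did not pass. Mzb1, lower on average at 25 against 29.8 CPM, did not pass either. Of 10 T-cell markers Cd8a was at 0 and 3 were tested, with sums of 16.4 to 27.5 against 13.5 to 17.5 CPM, mostly Lat (16.9 against 12.0 on average). NK-cell markers stood at 187 to 329 against 63.5 to 166 CPM, mostly Klrb1c (274 against 107 on average), with Gzma and Eomes at 0. Monocyte and macrophage markers summed to 106 to 151 against 73.9 to 109 CPM, the largest part Lyz2 (67.9 against 52.6), which did not pass. Csf1r, at 26.1 against 5.92, and Ly6c2, at 2.89 against 1.29, rose. Itgam (22.7 against 24) did not pass, and Adgre1 and Ccr2, also lower on average, were too low to test. Stromal and endothelial markers summed to 254 to 306 against 142 to 178 CPM, mostly Pecam1 (262 against 150). Neutrophil sums were 3.58 to 13.2 against 3.58 to 7.99, erythroid sums 16.6 to 46.8 against 7.84 to 22.4 and plasmacytoid dendritic cell sums 772 to 1040 against 740 to 956 CPM, the last mostly Ly6d and Tcf4. Siglech, of the dendritic cell list, rose from 0.154 to 3.70 CPM on average with no overlap (edgeR adjusted p = 0.00023), while Klk1 was at 0. Tcf4 of that list rose too (338 against 284 CPM). Bst2 (42.5 against 47.4), Cox6a2 (1.31 against 1.72) and Ly6d (568 against 550) did not pass. The part of such cells in the differences that follow was not tested.

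Of the 40 members, 21 had enough counts to be tested. Receptor genes made up the rises: 7 receptors were higher in GFP high and 2 ligands, Tnfsf4 and Tnfsf8, were lower, while the other 12 did not pass (edgeR quasi-likelihood test, adjusted p under 0.05 by the Benjamini-Hochberg method over all genes). These 9 calls are 42.9% of the tested members, where 27.5% of the 12772 genes tested were called. By direction the background was 12.0% higher and 15.4% lower. Without both libraries numbered 3, 5 receptors were higher and 0 ligands lower. The median log2 fold change, given throughout as GFP high over GFP low, was 0.36 over the tested members and 0.03 over all tested genes. The remaining 19 members were too low to test, and 5 of them had no count in any library. Whether lower values reflect fewer expressing cells or less RNA per cell cannot be told apart in bulk libraries.

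**Figure D1:**
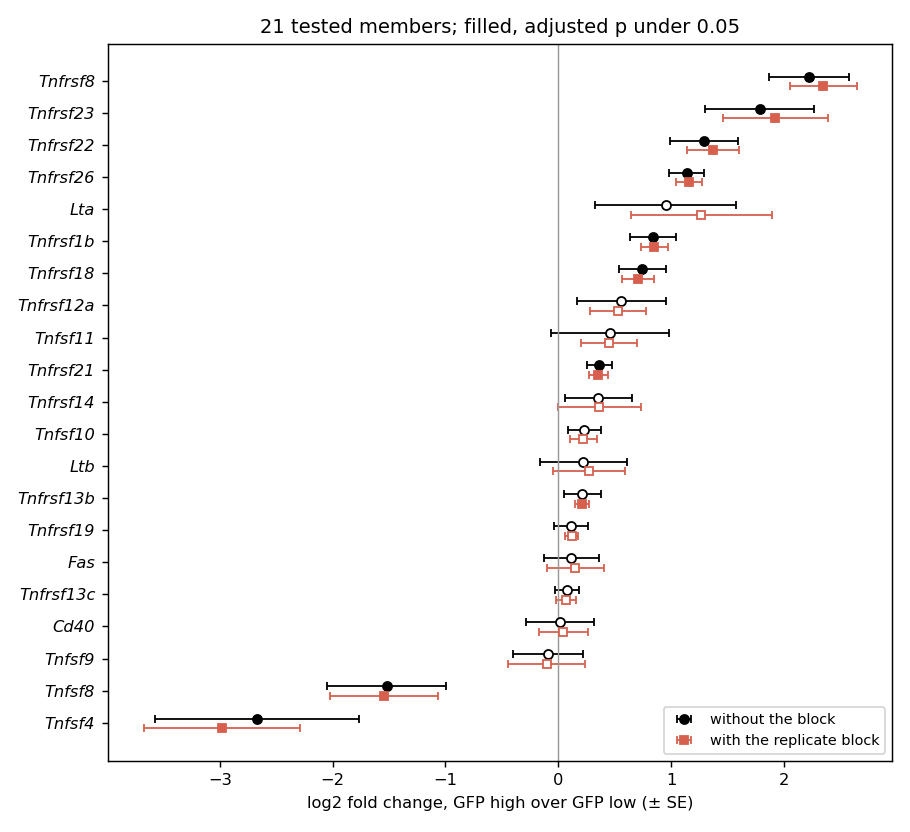
Log2 fold change of each tested member, GFP high over GFP low, ± SE, without (black circles) and with (red squares) the replicate number as a block; filled symbols have an adjusted p under 0.05. The 7 receptors that rose lie between 0.36 and 2.22, and the ligands Tnfsf8 and Tnfsf4 lie at -1.52 and -2.67.

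Some of the receptor genes that rose lie side by side. Tnfrsf26, Tnfrsf22 and Tnfrsf23 follow one another on mouse chromosome 7, and Tnfrsf1b and Tnfrsf8 are neighbours on chromosome 4, separated by 20.3 kb. The 300-base promoters (250 bases before and 50 after the start site, RefSeq, build GRCm38.p6, the gene's own strand) are shown for the chromosome 4 neighbours, for Tnfrsf23, and for Tnfsf8, which encodes the ligand of the Tnfrsf8 product and moved the other way. Capitals mark matches on either strand to an NF-kB-like motif (GGGA and CC with 4 bases of any kind between them) or to CAGGTG, an E-box bound by E proteins. The E-box was chosen after the sequences had been read.
Tnfrsf8 (chr4:145315115-145315414, minus strand): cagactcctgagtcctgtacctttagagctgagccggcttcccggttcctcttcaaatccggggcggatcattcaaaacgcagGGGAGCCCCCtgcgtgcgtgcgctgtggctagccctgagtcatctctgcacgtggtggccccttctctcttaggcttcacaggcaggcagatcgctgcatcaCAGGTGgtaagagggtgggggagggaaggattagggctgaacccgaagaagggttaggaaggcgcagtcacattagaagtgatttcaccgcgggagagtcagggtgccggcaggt
Tnfrsf1b (chr4:145246821-145247120, minus strand): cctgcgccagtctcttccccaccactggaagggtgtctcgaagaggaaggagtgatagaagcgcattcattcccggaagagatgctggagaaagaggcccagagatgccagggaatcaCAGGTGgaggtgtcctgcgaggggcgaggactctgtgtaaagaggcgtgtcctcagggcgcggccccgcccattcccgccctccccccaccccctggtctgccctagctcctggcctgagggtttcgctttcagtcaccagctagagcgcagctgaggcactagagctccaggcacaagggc
Tnfrsf23 (chr7:143685826-143686125, minus strand): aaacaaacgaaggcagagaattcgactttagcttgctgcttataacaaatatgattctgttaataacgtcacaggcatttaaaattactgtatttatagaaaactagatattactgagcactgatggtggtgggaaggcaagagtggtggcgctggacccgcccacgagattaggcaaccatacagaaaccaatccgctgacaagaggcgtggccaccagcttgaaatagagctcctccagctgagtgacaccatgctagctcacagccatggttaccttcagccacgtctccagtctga
Tnfsf8 (chr4:63861235-63861534, minus strand): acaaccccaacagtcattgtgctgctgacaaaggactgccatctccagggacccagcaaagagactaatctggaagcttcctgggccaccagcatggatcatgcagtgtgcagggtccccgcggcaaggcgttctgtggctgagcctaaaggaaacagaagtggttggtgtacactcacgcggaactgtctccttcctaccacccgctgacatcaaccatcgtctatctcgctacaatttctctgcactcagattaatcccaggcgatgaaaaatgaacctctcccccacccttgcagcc

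Tnfrsf8 held 1 match to the NF-kB-like motif, at position -167 from the start site, and 1 E-box at -65. Tnfrsf1b held an E-box at -132, and so did Tnfrsf18, another receptor gene that rose, at -231. None of these motifs, nor the EBF-like CCCNNGGG or the FOXO-like TGTTTAC, was found in the windows of Tnfrsf23, Tnfrsf21 and Tnfsf8. Of all 32851 promoters of this length, 20.7% held the NF-kB-like motif, 20.2% the E-box, 13.7% the EBF-like and 3.6% the FOXO-like motif. Among the 35 promoters listed for 31 of the members the numbers were 9, 10, 7 and 1. A match in letters is not a measured binding site.

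The chromosome 7 receptors are rodent decoy-type receptors. Tnfrsf22 and Tnfrsf23 bind the death ligand TRAIL without a functional death domain, and the ligand of the related Tnfrsf26 is less well defined. Tnfrsf26 (ENSMUSG00000045362, mm10 chromosome 7, 143607659 to 143628722) had 56.1, 54.2, 67.6, 65.3 and 58.7 CPM in GFP high libraries 1 to 5. In GFP low libraries 1 to 5 it had 26.1, 18.9, 25.1, 35.4 and 31.7 CPM. Every GFP high library lay above every GFP low library. The means were 60.4 ± 5.81 and 27.4 ± 6.36 CPM (SD, n = 5 each), and Tnfrsf26 rose by 1.14 ± 0.15 (SE) on the log2 scale, with an adjusted p of 0.000213 by edgeR.

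Tnfrsf22 (ENSMUSG00000010751, 143634806 to 143649661) had 8.46, 7.84, 6.87, 8.95 and 11.5 CPM in GFP high and 2.87, 2.69, 1.94, 4.32 and 5.89 CPM in GFP low. These groups did not overlap either, and the log2 fold change was 1.29 ± 0.30 (edgeR adjusted p = 0.00674). Tnfrsf23 (ENSMUSG00000037613, 143665809 to 143685872), whose promoter is printed above, was the least abundant of the cluster with 2.41, 2.35, 4.56, 5.53 and 3.12 CPM in GFP high and 0.789, 0.565, 0.387, 0.943 and 2.44 CPM in GFP low. GFP low library 5 reached into the GFP high range, and the other 4 GFP low libraries stayed below it. Tnfrsf23 rose by 1.78 ± 0.48 on the log2 scale (edgeR adjusted p = 0.0161), and each of the cluster's genes was higher in GFP high in 5 of 5 same-numbered pairs. Without both libraries numbered 3 Tnfrsf23 did not pass (1.48, edgeR adjusted p = 0.0781), and in replicates 4 and 5 alone neither Tnfrsf23 (1.33, edgeR adjusted p = 0.131) nor Tnfrsf22 (0.98, edgeR adjusted p = 0.0506) passed. Tnfrsf22 and Tnfrsf23 share sequence: of the distinct 50-base words in the transcripts of Tnfrsf23, 18% also occur in another gene, which is Tnfrsf22 in every case. Of those of Tnfrsf22, 27.4% occur in another gene, and these genes include Slc25a20 and predicted genes besides Tnfrsf23. The split of reads between Tnfrsf22 and Tnfrsf23 is therefore uncertain. Tnfrsf26 shares 0 of its 3168 such words with another gene.

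Among the genes around this cluster, Osbpl5, an oxysterol-binding protein gene that follows Tnfrsf23, rose by 1.07 ± 0.14 (67.8 ± 5.16 against 32.3 ± 7.23 CPM, SD, n = 5 each, edgeR adjusted p = 0.000207). On the other side Cars did not pass (-0.17 ± 0.13) and Nap1l4 fell by 0.28 ± 0.07. Of the 8 other genes tested within 300 kb, 1 rose, 1 fell and 6 did not pass. They include the antisense transcript E230032D23Rik, which overlaps each receptor gene of the cluster and held 498 counts in all against 5680 for Tnfrsf26, 792 for Tnfrsf22 and 303 for Tnfrsf23. Its log2 fold change was 0.48 ± 0.28 (edgeR adjusted p = 0.223). The sources used here do not give whether counting used strand, so its reads and those of the receptors may not be separated.

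**Figure D2:**
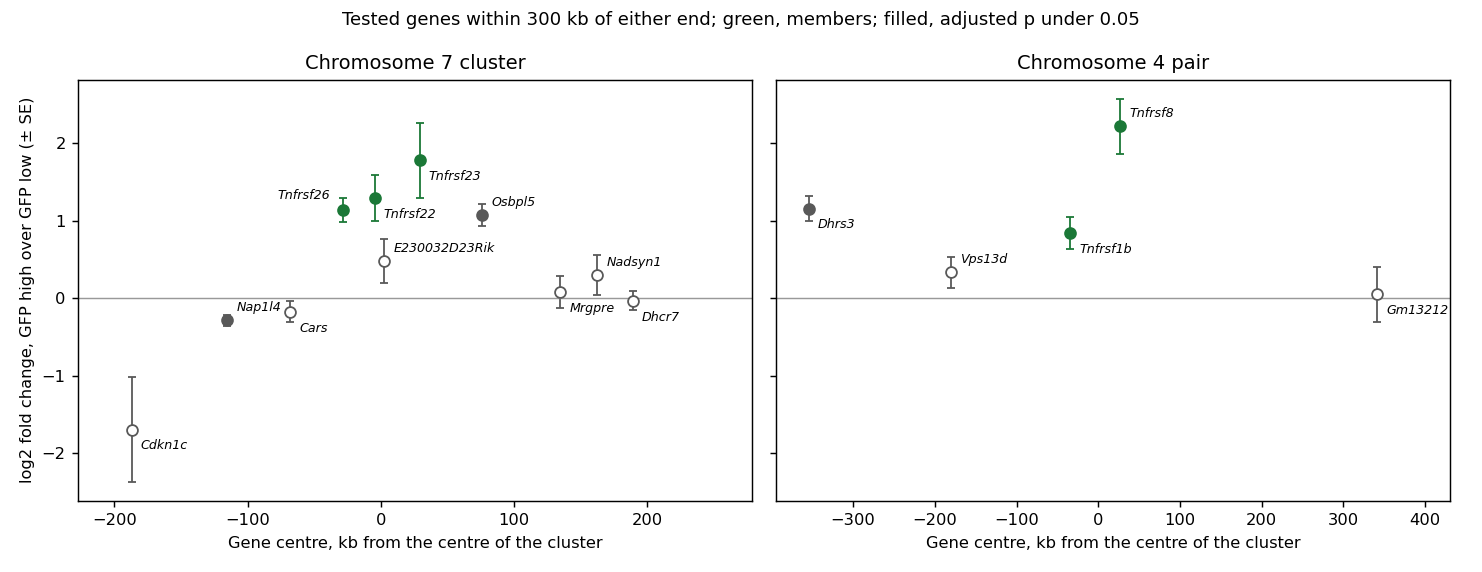
Log2 fold change (GFP high over GFP low, ± SE) of tested genes within 300 kb of either end of the chromosome 7 cluster (left) and the chromosome 4 pair (right), against distance in kb of the gene's centre from the cluster's centre; green symbols are superfamily members and filled symbols have an adjusted p under 0.05. On the left Tnfrsf26, Tnfrsf22, Tnfrsf23 and Osbpl5 lie between 1.07 and 1.78; on the right Tnfrsf8 lies at 2.22 and Tnfrsf1b at 0.84.

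Tnfrsf8, which encodes the activation receptor CD30, had the largest log2 fold change of the tested members that rose. This gene (ENSMUSG00000028602, chromosome 4, 145267137 to 145315164) had 13.6, 9.32, 13.5, 13.4 and 12.3 CPM in GFP high and 1.29, 1.77, 1.55, 5.03 and 3.66 CPM in GFP low. The GFP high libraries were all above the GFP low libraries, among which 4 and 5 were highest. The log2 fold change was 2.22 ± 0.35, a 4.65-fold difference (edgeR adjusted p = 0.000699). Replicates 1 to 3 alone gave 3.0, replicates 4 and 5 alone gave 1.55, and both passed (edgeR adjusted p = 0.000398 and 0.00428). That difference between sets of replicates was not tested.

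The gene next to it, Tnfrsf1b (ENSMUSG00000028599, chromosome 4, 145213463 to 145246870), encodes TNFR2, a TNF receptor without a death domain. It had 36.7, 56.4, 46.7, 65.7 and 64.2 CPM in GFP high and 24.3, 20.8, 29.0, 34.4 and 41.9 CPM in GFP low. The groups overlapped in that GFP low library 5 exceeded GFP high library 1, yet GFP high was higher in 5 of 5 pairs. Tnfrsf1b rose by 0.84 ± 0.20 on the log2 scale (edgeR adjusted p = 0.00889). Of the 3 other genes tested within 300 kb of this pair, Dhrs3, a retinal reductase gene, rose by 1.16 ± 0.16 and the others did not pass. The other TNF receptor gene, Tnfrsf1a, which encodes the death domain receptor TNFR1, was too low to test, with 0 to 28 counts per library.

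Tnfrsf18 (ENSMUSG00000041954, chromosome 4, 156026164 to 156028895) encodes GITR, a costimulatory receptor best known on regulatory T cells. It had 19.4, 40.2, 29.1, 42.7 and 43.2 CPM in GFP high and 18.4, 18.1, 19.5, 26.8 and 21.3 CPM in GFP low. GFP high library 1 lay within the GFP low range and the other 4 above it. Tnfrsf18 rose by 0.75 ± 0.21 (edgeR adjusted p = 0.0193). Among T-cell markers Cd8a was at 0 and Cd3e, Cd3g and Cd4 had 0 to 6 counts per library, and the sum of that list was mostly Lat. Cd28 averaged 2.72 against 1.43 CPM and Cd5 1.71 against 1.15, and neither passed. Trac, at 0.483 against 0.237, and Cd3d, at 0.24 against 0.116, were too low to test. Cd8b1 went the other way, at 0 against 0.0314. The part of T cells in the rise of Tnfrsf18 was not tested. Tnfrsf18 did not pass without both libraries numbered 3 (0.78, edgeR adjusted p = 0.0551) or in replicates 1 to 3 alone (0.69, edgeR adjusted p = 0.0671). Its neighbour Tnfrsf4, the OX40 gene 9.6 kb away, had 2 to 12 counts per library and was not tested.

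Tnfrsf21 (ENSMUSG00000023915, chromosome 17, 43016555 to 43089189), the gene of the death domain receptor DR6, had 111, 82.3, 77.5, 101 and 107 CPM in GFP high and 74.6, 64.6, 76.1, 81.1 and 75.1 CPM in GFP low. All GFP high libraries except library 3 were above every GFP low library. The rise of 0.36 ± 0.11 (edgeR adjusted p = 0.029) was the smallest of the 7. It did not pass without GFP high library 5 (0.33, edgeR adjusted p = 0.0524), without GFP low library 2 (0.32, edgeR adjusted p = 0.0612) or in replicates 1 to 3 alone (0.35, edgeR adjusted p = 0.0978). Among all 21 tested members the groups did not overlap for 3 genes, Tnfrsf26, Tnfrsf22 and Tnfrsf8, all higher in GFP high, where 7.92% of all tested genes were higher without overlap.

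**Figure D3:**
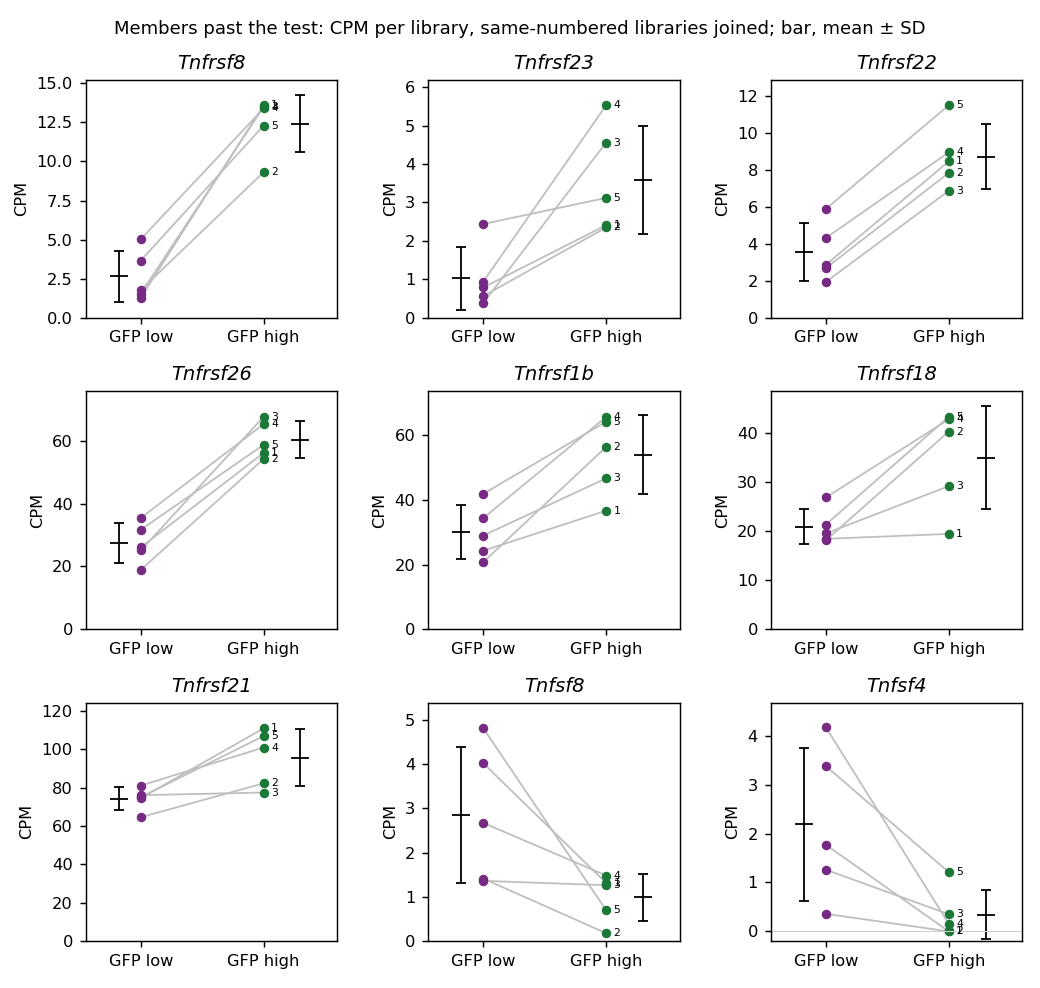
CPM in each library for the 9 members past the test; grey lines join libraries with the same number, small digits give that number beside the GFP high point, and bars show mean ± SD (n = 5 each). Each of the 7 receptors is higher in GFP high in 5 of 5 pairs, and Tnfsf8 and Tnfsf4 are lower in 5 of 5.

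The ligands that fell were near the limit of detection. Tnfsf8 (ENSMUSG00000028362, chromosome 4, 63831308 to 63861347), the gene of CD30 ligand, had 18, 2, 18, 19 and 8 counts in GFP high and 56, 20, 14, 34 and 71 counts in GFP low. In CPM this was 0.984 ± 0.541 against 2.85 ± 1.54 (SD, n = 5 each), and GFP low libraries 2 and 3 lay within the GFP high range in CPM. Tnfsf8 fell by 1.52 ± 0.53 (edgeR adjusted p = 0.0493). Of the edgeR fits that leave out 1 library it passed only without GFP low library 2, with an adjusted p of 0.0446, and without library 3 of that sort, with 0.0441, and the other 8 gave adjusted p-values from 0.0572 (without GFP high library 4) to 0.125 (without GFP low library 5) with log2 fold changes of -1.69 to -1.24. It also missed the threshold with RLE scaling (adjusted p = 0.0505), with total-count scaling (0.0575) and in replicates 1 to 3 alone (0.24).

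Tnfsf4 (ENSMUSG00000026700, chromosome 1, 161395409 to 161418410), the gene of OX40 ligand, had 0, 0, 5, 2 and 14 counts in GFP high and 5, 25, 13, 53 and 50 counts in GFP low. GFP high library 5 stood above the others of its sort and above GFP low library 1. Tnfsf4 fell by 2.67 ± 0.90 (edgeR adjusted p = 0.0443). Among the edgeR fits that leave out 1 library it passed without GFP high library 5 (-3.96, adjusted p = 0.0103) and without GFP low library 1 (-2.96, adjusted p = 0.0266), and the other 8 gave adjusted p-values of 0.0588 to 0.102. Over all genes and libraries 69.1% of the counts from 1 to 10 were even. Whether both reads of a pair were counted was not tested; if so, independent fragments are fewer than these counts.

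The most abundant members were receptors that did not pass. Per kilobase of exon, the scale on which genes can be compared, Tnfrsf13b had the highest level of all members at 119 CPM per kilobase over all libraries, followed by Tnfrsf19 at 83.1 and Tnfrsf13c at 38.7. The levels of Tnfrsf13b and Tnfrsf19 exceeded those of 96.9% and 95% of tested genes. Next came Tnfrsf21 at 20.7, Tnfrsf18 at 18.3, Tnfrsf26 at 13.6 and Tnfrsf1b at 11.0. Among ligands Tnfsf10, the TRAIL gene, was highest at 5.79 CPM per kilobase.

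**Figure D4:**
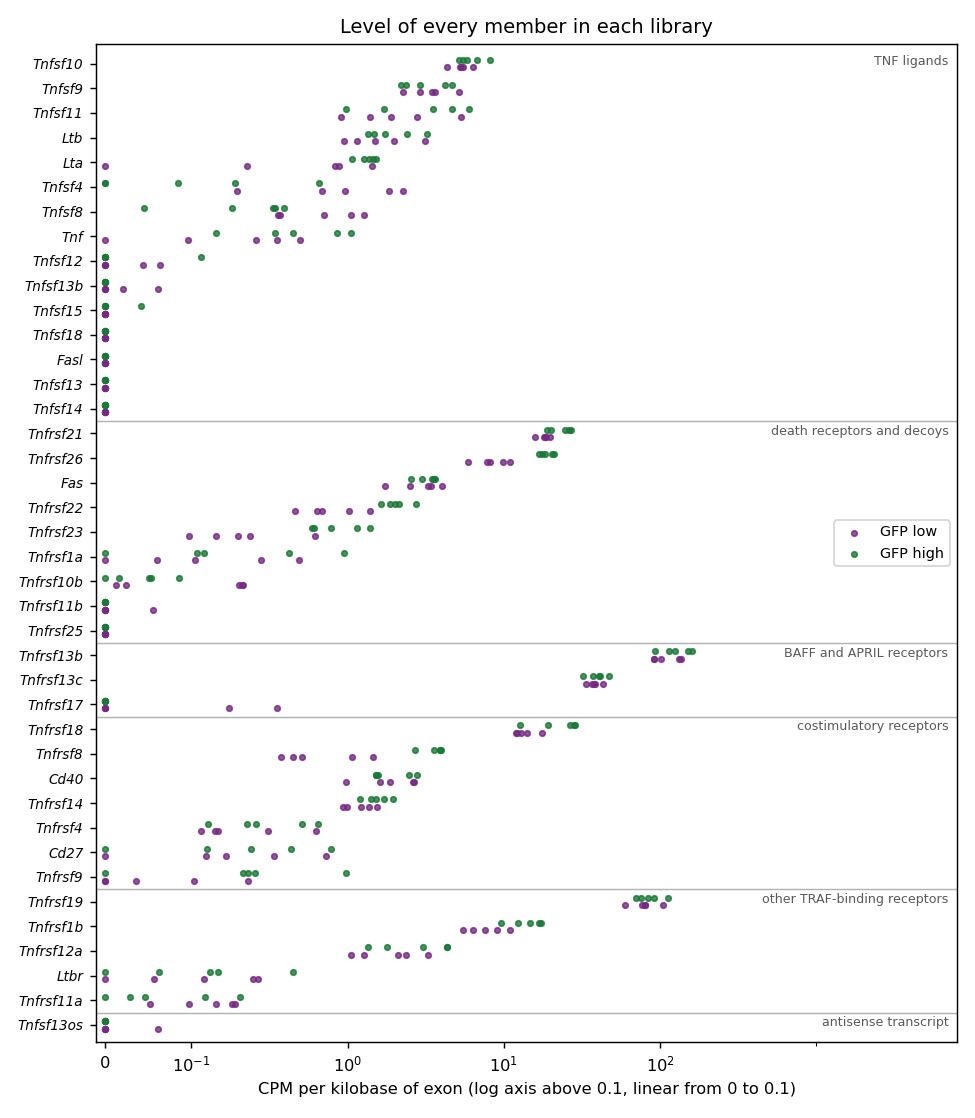
Level of each of the 40 members in each library, in CPM per kilobase of exon (log axis above 0.1, linear from 0 to 0.1), grouped by role and ordered by level; green points are GFP high and purple points GFP low. Tnfrsf13b, Tnfrsf19 and Tnfrsf13c stand at the right in both sorts, and 5 members are at 0 in every library.

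Tnfrsf13b (ENSMUSG00000010142, chromosome 11, 61126755 to 61149372) encodes TACI, a receptor of BAFF and APRIL. It had 352, 321, 263, 454 and 430 CPM in GFP high and 289, 259, 258, 375 and 387 CPM in GFP low. The groups overlapped widely, but each pair was higher in GFP high, by 5 of 5. The log2 fold change was 0.21 ± 0.16 (edgeR adjusted p = 0.361), and with the replicate number as a block it passed (0.21, edgeR adjusted p = 0.0129). With that block 41.8% of all tested genes were called, and 20.7% were called higher.

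Tnfrsf13c, which encodes the BAFF receptor of mature B cells, had 76.0, 85.0, 66.1, 96.4 and 83.6 CPM in GFP high and 88.4, 78.0, 68.5, 74.5 and 76.8 CPM in GFP low. The ranges lay over each other, with a log2 fold change of 0.075 ± 0.11 that did not pass (edgeR adjusted p = 0.645) and a value of -0.03 in replicates 1 to 3 alone. Tnfrsf17, which encodes BCMA of plasma cells, was at 0 in all GFP high libraries and had 4 and 2 counts in GFP low libraries 1 and 2, with 0 in the others. The ligands of this group were nearly silent here: Tnfsf13, the APRIL gene, had 0 counts in every library, and Tnfsf13b, the BAFF gene, had 2 and 6 counts in GFP low libraries 1 and 2 and 0 elsewhere. A count of 0 allows up to 3 counts, or 0.203 to 0.291 CPM depending on the library, by counting error alone.

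Tnfrsf19 (ENSMUSG00000060548, chromosome 14, 60963875 to 61046490) encodes TROY, a receptor without a known ligand in the classical family that is best known from brain, skin and intestinal stem cells. It had 529, 359, 333, 431 and 395 CPM in GFP high and 494, 360, 281, 379 and 377 CPM in GFP low. Library 1 was highest and library 3 lowest in both sorts. The log2 fold change of 0.11 ± 0.15 did not pass (edgeR adjusted p = 0.615).

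The receptors that mediate T-cell help and death by Fas ligand showed small differences. Cd40 had 5.32, 9.50, 8.42, 5.14 and 5.19 CPM in the quiescent sort, against 3.30, 8.98, 9.10, 5.50 and 6.36 CPM in the proliferating sort. Libraries 2 and 3 were highest in both sorts, and the log2 fold change was 0.02 ± 0.30 (edgeR adjusted p = 0.974), with a sign that turned when single libraries were left out (-0.15 without GFP low library 1). Fas had 6.20, 5.23, 7.44, 7.32 and 7.10 CPM in GFP high, against 8.25, 6.71, 5.13, 7.08 and 3.59 CPM for GFP low libraries. The log2 fold change of 0.11 ± 0.24 did not pass (edgeR adjusted p = 0.767) and was -0.02 without GFP low library 5. Fasl, the gene of its ligand, had 0 counts in every library. Cd27, the costimulatory receptor of memory B cells, was not tested: the GFP high libraries held 4, 0, 8, 13 and 21 counts, the GFP low libraries 4, 0, 4, 10 and 25, lowest in library 2 and highest in library 5 of both sorts. Vamp1 overlaps it on the opposite strand.

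Of the remaining tested receptors, Tnfrsf12a, which encodes the receptor of TWEAK, had a log2 fold change of 0.56 ± 0.40, and Tnfrsf14, which encodes HVEM, one of 0.36 ± 0.29. Neither passed (edgeR adjusted p = 0.323 and 0.401). Tnfrsf10b, the only death-domain TRAIL receptor gene of the mouse, was not tested, with 0 to 16 counts per library. Tnfrsf11a, the RANK gene, had 0 to 16 counts per library, Ltbr had 0 to 12 and Tnfrsf9, the 4-1BB gene, had 0 to 38 with its highest count in GFP high library 3. Camta1 overlaps Tnfrsf9 on the opposite strand. Tnfrsf11b had 2 counts in 1 library, and Tnfrsf25 had none.

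Among the 7 tested ligands, 0 rose by edgeR, where also 0 had an unadjusted p under 0.05 in that direction and DESeq2 called 0. Tnfsf10 had 28.9, 35.6, 27.0, 42.6 and 30.5 CPM in GFP high and 28.9, 27.6, 22.7, 27.8 and 33.2 CPM in GFP low, a log2 fold change of 0.23 ± 0.15 (edgeR adjusted p = 0.265). Its product is the ligand bound by Tnfrsf22 and Tnfrsf23 of the chromosome 7 cluster. Tnfsf11, the RANK ligand gene, split by library number instead of by sort: libraries 1 to 3 had 10.4, 7.84 and 13.3 CPM in GFP high, against 11.8, 4.24 and 6.20 for GFP low, while libraries 4 and 5 had 2.18 and 3.81 in GFP high, against 2.04 and 3.11 for GFP low. The sort difference was 0.46 ± 0.52 (edgeR adjusted p = 0.552). Tnfsf9, the 4-1BB ligand gene, had a log2 fold change of -0.09 ± 0.31 (edgeR adjusted p = 0.854), which was 0.10 without GFP low library 3. The transcript Gm11110 overlaps Tnfsf9 on the opposite strand with 688 counts against 555.

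The lymphotoxin and TNF genes lie together on chromosome 17, with Ltb 3.1 kb from Tnf and Tnf 1.2 kb from Lta. Ltb, which anchors lymphotoxin at the cell surface, had 2.04, 2.61, 2.24, 4.91 and 3.64 CPM in GFP high and 1.43, 2.26, 1.74, 2.99 and 4.74 CPM in GFP low. The log2 fold change was 0.22 ± 0.38 (edgeR adjusted p = 0.707). Lta ranged over 19 to 30 counts per GFP high library and 0 to 28 per GFP low library, and its log2 fold change of 0.95 ± 0.63 did not pass (edgeR adjusted p = 0.284). Tnf itself was too low to test, with 10, 16, 8, 3 and 20 counts for GFP high libraries 1 to 5 and 8, 6, 0, 2 and 12 for GFP low. Each GFP high library was above its same-numbered partner in CPM. The other untested ligands were Tnfsf12 and Tnfsf15, with at most 2 counts in any library, and Tnfsf14 and Tnfsf18, with 0 counts in all. Tnfsf13os had 1 count in 1 library.

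Other genes of these pathways were read from fixed lists. The list of superfamily genes with other names held 8 genes, of which Edaradd encodes an adaptor and not a ligand or receptor. Cd70, Edar and Ngfr had no counts, Cd40lg at most 1 count per library, and only Relt and Edaradd were tested. By edgeR 0 passed (1 had an unadjusted p under 0.05 and DESeq2 called 0). Without GFP high library 1, and with the replicate block, 2 did, the orphan receptor gene Relt and the EDAR adaptor gene Edaradd. On all libraries Relt was at 0.42 ± 0.20 without the block (edgeR adjusted p = 0.138) and 0.41 ± 0.12 with it (edgeR adjusted p = 0.0129). Edaradd was at -0.34 ± 0.14 without the block (edgeR adjusted p = 0.0935) and -0.34 ± 0.097 with it (edgeR adjusted p = 0.014). With that block 41.8% of all tested genes were called.

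Of 27 TRAF and NF-kB-inducing adaptors, all tested, 3 rose, 3 fell and 21 did not pass, with a median log2 fold change of 0.09. The 22.2% called lie below the 27.5% of all tested genes. With the replicate block 8 rose and 3 fell, or 40.7%, near the 41.8% of all genes in that fit. Map3k14, the kinase NIK of the alternative NF-kB pathway, rose by 1.16 ± 0.22 (30.2 against 13.5 CPM), and Ikbkb, a kinase of the classical pathway, by 0.49 ± 0.08 (206 against 146 CPM). Traf4 fell by 0.77 ± 0.13 (65.2 against 111 CPM). In the same order the edgeR adjusted p-values were 0.00198, 0.00106 and 0.000878. Without both libraries numbered 3, and without GFP low library 2, 4 or 5, 3 genes of this list were called instead of 6.

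In the death receptor signalling list 2 of 16 genes rose, 4 fell and 10 did not pass (37.5% called, median -0.02). Of all tested genes 27.5% were called, 12.0% higher and 15.4% lower. Dap3, the gene of a mitochondrial ribosomal protein, fell by 0.39 ± 0.08 on the log2 scale (64.0 against 83.7 CPM, edgeR adjusted p = 0.00498). The initiator Casp8 and the adaptor Fadd did not pass, at 0.02 ± 0.20 and 0.08 ± 0.23. Without both libraries numbered 3, 3 genes of the list were called.

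Of 19 tested NF-kB response genes, 3 rose and 16 did not pass (15.8% called, against 27.5% of all tested genes), with a median of 0.17. None fell by edgeR, 0 had an unadjusted p under 0.05 in that direction and DESeq2 called 0. With the replicate block 7 rose (36.8%), where 20.7% of all tested genes were called higher and 41.8% in either direction. The chemokine genes Ccl4 (4.71 against 0.292 CPM) and Ccl3 (2.67 against 0.219 CPM) and the nuclear inhibitor gene Nfkbiz (94.1 against 51.1 CPM) rose, by 3.93 ± 0.69, 3.57 ± 0.73 and 0.88 ± 0.27 on the log2 scale (edgeR adjusted p = 0.00124, 0.00335 and 0.0314). Both chemokine genes were near the limit of detection in GFP low, with 10, 0, 0, 6 and 4 counts for Ccl4 and 2, 0, 4, 2 and 6 for Ccl3. In GFP high Ccl3 had 22, 32, 22, 11 and 76 counts, highest in library 5. Ccl3 and Ccl4 are also made by myeloid cells. The inhibitor gene Nfkbia, a standard early target, stood at 347 against 353 CPM (-0.02 ± 0.25, edgeR adjusted p = 0.954). Of 5 tested genes of shedding and processing 2 rose and 3 did not pass (40% called, against 27.5% of all tested genes). The protease gene Furin rose by 0.75 ± 0.13 and Rhbdf2, a cofactor of the sheddase ADAM17, by 0.27 ± 0.08 (edgeR adjusted p = 0.00128 and 0.0226). Adam10 was among those that did not pass, at -0.18 ± 0.15 (edgeR adjusted p = 0.426), and passed with the block (adjusted p = 0.03). Without GFP high library 4, without GFP low library 4 or without both libraries numbered 3, 1 gene of this list was called.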

How the data were processed

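The deposited table holds whole-number read counts per Ensembl gene, not normalized, for 10 libraries made from polyadenylated RNA with a SMART-Seq low-input kit, per the labels' protocols. The submitters' processing notes name mm10, STAR, featureCounts and DESeq2, with no role or version. Strand and treatment of reads with several matches are not given in the sources used here. Symbols and positions came from GENCODE M21 (GRCm38, the same build as mm10), which matched 99.833% of identifiers. The 93 unmatched identifiers held 4219 of 129994434 counts.

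The test was edgeR 4.0.16 under R 4.3.3 (filterByExpr, TMM scaling, glmQLFit and glmQLFTest, no covariate), with Benjamini-Hochberg adjustment over 12772 genes and a threshold of 0.05. SE is the size of the log2 fold change divided by the root of the F statistic. CPM used TMM-scaled library sizes, and levels per kilobase used the union of annotated exons. The procedure was checked on simulated counts of independent libraries. These had no shared effect of library number, so the check does not cover that feature of the data. DESeq2 1.42.0, other scalings and filters, the replicate block and fits with libraries left out were alternatives. The fits on replicates 1 to 3 and on 4 and 5 were added after seeing the data, since some members split that way.

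Same-numbered libraries of the sorts deviated together from their group means (correlation 0.248 to 0.353 over genes), and 10 of 10 libraries correlated best with their own number. The numbers were therefore used as a block in an alternative fit, although the labels do not say what a number marks. The test reported here has no block, so its SE and p-values ignore this pairing. With the block 5333 of the 12772 genes were called, against 3511 without it. Libraries of 1 sort differed by more than sampling noise in every pairing (lowest chi-square per gene 7.16). Separate animals are not named in the labels for each library, and the p-values then measure only the spread among these samples, which may be technical.

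Members and lists were chosen with earlier results of these data known. Every member is accounted for. Values in every library are given for members past the threshold with or without the block, for the 3 highest per kilobase, and for Tnfrsf13b, Tnfrsf13c, Tnfrsf17, Cd27, Cd40, Tnf, Ltb and Fas. The 3 tested genes of lowest p are named from each pathway list, except that some are not reported here. Cars, Nap1l4, Osbpl5, E230032D23Rik, Casp8, Fadd, Nfkbia and the markers were named after their values were seen, as were the per-library values of Tnfsf10 and Tnfsf11.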

Additional observations from a re-analysis of the deposited data

Results flagged for a closer look

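Among 42 sets of 5 libraries (21 tested members in each sort), 2 held a library whose gap to its nearest neighbour, divided by the whole range, exceeded Dixon's 95% limit of 0.71. Chance alone gives about 1 in 20, and 2 of 42 sets is near that rate. Tnfsf4 had 1.21 CPM in GFP high library 5, where the next highest was 0.351 CPM (gap over range 0.711). Tnfrsf23 had 2.44 CPM in GFP low library 5, where the next highest was 0.943 CPM (gap over range 0.729). Both are the libraries numbered 5, and in both cases the value lies toward the other sort. Without these libraries the log2 fold changes were -3.96 for Tnfsf4 (edgeR adjusted p = 0.0103) and 2.40 for Tnfrsf23 (edgeR adjusted p = 0.00217). Leaving out a value that lies toward the other sort enlarges the difference, so these fits are no further support for it.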

How the results depend on the processing

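The 7 higher members passed with RLE scaling, total-count scaling, DESeq2, both other filters and the replicate block, and the count was 6 to 7 with single libraries left out. It was 5 without both libraries numbered 3, and also 5 for replicates 1 to 3 and for 4 and 5. The count of lower members was 2 with DESeq2, the 1 CPM filter and the block. It was 1 with RLE scaling, total-count scaling or no filter beyond a count, 0 without both libraries numbered 3, 0 for replicates 1 to 3, 1 for replicates 4 and 5, and 0 to 1 with single libraries left out. Over all genes 2645 were higher with the replicate block and 926 without both libraries numbered 3, against 1538, and 1189 to 1479 with single libraries left out. For lower genes the latter range was 1617 to 1940. The replicate block called 2 genes of the list of other names (against 0), 11 TRAF and NF-kB-inducing adaptors (against 6) and 7 NF-kB response genes (against 3). Among the members it changed the call of Tnfrsf13b alone. Without both libraries numbered 3 the counts were 3 adaptors, 3 death receptor signalling genes (against 6) and 1 shedding gene (against 2). NF-kB response genes numbered 5 both for replicates 1 to 3 and for 4 and 5. The shedding list gave 1 with no filter beyond a count and 1 in replicates 4 and 5 alone. With single libraries left out the ranges were 0 to 2, 3 to 7, 6 to 6, 2 to 3 and 1 to 2 for the lists of other names, adaptors, death receptor signalling, NF-kB response and shedding.

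Signs turned for 4 members that did not pass. Tnfsf9 (-0.09) was 0.21 without both libraries numbered 3, 0.77 in replicates 4 and 5 alone and -0.25 to 0.10 with single libraries left out. Among these Tnfsf9 was 0.02 without GFP high library 2 or 3. Fas (0.11) was -0.068 for replicates 1 to 3 and -0.021 to 0.24 with single libraries left out, and Tnfrsf13c (0.075) was -0.026 for the same replicates. Cd40 was -0.22 in replicates 4 and 5 alone and -0.15 to 0.16 with single libraries left out, with -0.12 and -0.08 without GFP high library 2 and 3 and -0.03 without GFP low library 4. The cause was not tested. The column headers name no batch, so the planned fit within batches was not run. Depth limits the 19 untested members and Lta, Tnfsf4, Tnfsf8 and Tnfrsf23, whose counts fell to 4 or less in some library.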
